A study of Mus musculus with 4 samples.

Results

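The genes described here encode ribosome assembly factors, subunits of RNA polymerase I and subunits of the RNA exosome. They were taken by the gene name printed in the array files: names that begin Utp, Exosc or Polr1, names that begin Nop followed by a number, and 20 listed genes. That gave 49 genes (9 Utp, 10 Exosc, 5 Polr1, 5 Nop and the 20 listed), out of 24658 genes and transcripts tested. The genes were chosen by their log2 difference between DEM-exposed and untreated cells in these same arrays, so that difference is described here with no test of its own. The 4 samples were C3H10T1/2 cells, a mouse embryo fibroblast line, and all 4 had been transformed in culture by the carcinogen 3MC (2.5 µg/ml for 2 days) and then the phorbol ester TPA (100 ng/ml, given over 2 weeks), followed by 4 weeks in normal medium. Untreated transformed cells (2 arrays) were set against transformed cells exposed to 0.25 mM DEM (2 arrays). DEM is diethyl maleate, an electrophile that reacts with glutathione and lowers its level in cells. How long the cells were exposed is not stated in those labels, and cells that were never transformed were not analysed here.

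Ribosomes are built in the nucleolus. RNA polymerase I transcribes the ribosomal RNA precursor, small nucleolar ribonucleoproteins (snoRNPs) modify and help to cut it, the small subunit processome folds and cleaves it around the U3 snoRNP, and separate sets of factors carry the 40S and 60S particles through maturation and export. The RNA exosome is a ring of subunits with a cap and attached nucleases. It trims the 3′ ends of ribosomal RNA intermediates and degrades faulty RNA. In many cell types the genes of this pathway are controlled together, with MYC, which binds the E-box CACGTG, among the best known regulators.

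Each array carried 61657 probe spots, of which no spot was saturated, and 47.8% to 52.7% of all spots were well above background. Untreated arrays had a 75th percentile of signal of 701 and 747, and DEM arrays of 449.9 and 412. Levels below are log2 signal minus that percentile of the same array, so 0 is the 75th percentile and a difference of 1 is a 2-fold change. Probes differ in brightness, so a level is compared between arrays for 1 probe and never between genes. Correlations over all probes were 0.987 within the untreated pair, 0.984 within the DEM pair and 0.964 to 0.968 across the groups. Each of the 10 fibroblast markers exceeded background clearly on all 4 arrays, while Col1a2, Col3a1, Pdgfra, Pdgfrb and Dcn fell with DEM in the fit across all genes, as did the muscle marker Des and the endothelial marker Tek. Among markers of other cell types, 1 of 5 epithelial, 2 of 5 leukocyte, 0 of 4 endothelial and 1 of 4 skeletal muscle genes did so on all 4 arrays, whereas Cdh1, Krt18, Ptprc, Itgam, Cdh5, Kdr, Myod1, Myog and Ckm did so on 0 arrays. Whether any of these markers has a part in the results below was not tested. In RNA from whole cultures, fewer cells of a kind and less RNA per cell cannot be told apart. Nothing in the labels ties the arrays to separate cultures, so a p-value here reflects the spread between 2 samples per group, and that spread may be technical.

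Most of the 49 genes had more RNA in the DEM-exposed cells. All 49 had a probe well above background on all 4 arrays. Both DEM arrays lay above both untreated arrays for 44 genes, both lay below for Utp14b and Rrp1b, and the groups overlapped for Polr1c, Tsr1 and Wdr43. Over all genes tested, 42.4% had both DEM arrays above and 26% had both below, and over the 12680 protein-coding genes tested these shares were 39.9% and 31.5%. The median log2 difference of the 49 genes was 0.74, against 0.16 for all genes tested and 0.10 for protein-coding genes. In the fit across all genes (limma, Benjamini-Hochberg adjusted p under 0.05), 26 of the 49 passed as higher with DEM, 1 as lower and 22 did not pass. The same fit called 15.5% of all genes higher and 11.8% lower, or 16.7% and 16.7% of protein-coding genes. These counts, and the counts by role below, describe genes that were selected on the same arrays, and nothing is read from them. The shares over all genes given here stand beside each count by role as well. Differences of at least 2-fold were found for 17 genes upward and for 1 downward. Over all 24658 genes tested, 2543 differed at least 2-fold upward and 2864 downward, and nothing is read from this count either.

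The count depended on which array was present. Without untreated replicate 1 or without untreated replicate 2, 8 of the 49 passed as higher in each fit, and without DEM replicate 1 or 2 the counts were 28 and 32. Over all genes the corresponding counts higher were 837, 644, 4485 and 4489, so the number called moved in the same way across the array as a whole. For the 49 genes the median difference within the untreated pair was 0.13 and within the DEM pair 0.22, and a fit that leaves out an untreated array takes its spread from the DEM pair alone. With levels scaled to spike-in RNA, 0 of the 49 passed in either direction and the median difference was 0.58. That scaling gives every gene of an array the same shift, and it moved the arrays of a group apart, since relative to the spike-in level the 75th percentile stood at -2.76 and -3.41 in the untreated pair and at -2.79 and -3.70 in the DEM pair.

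**Figure D1:**
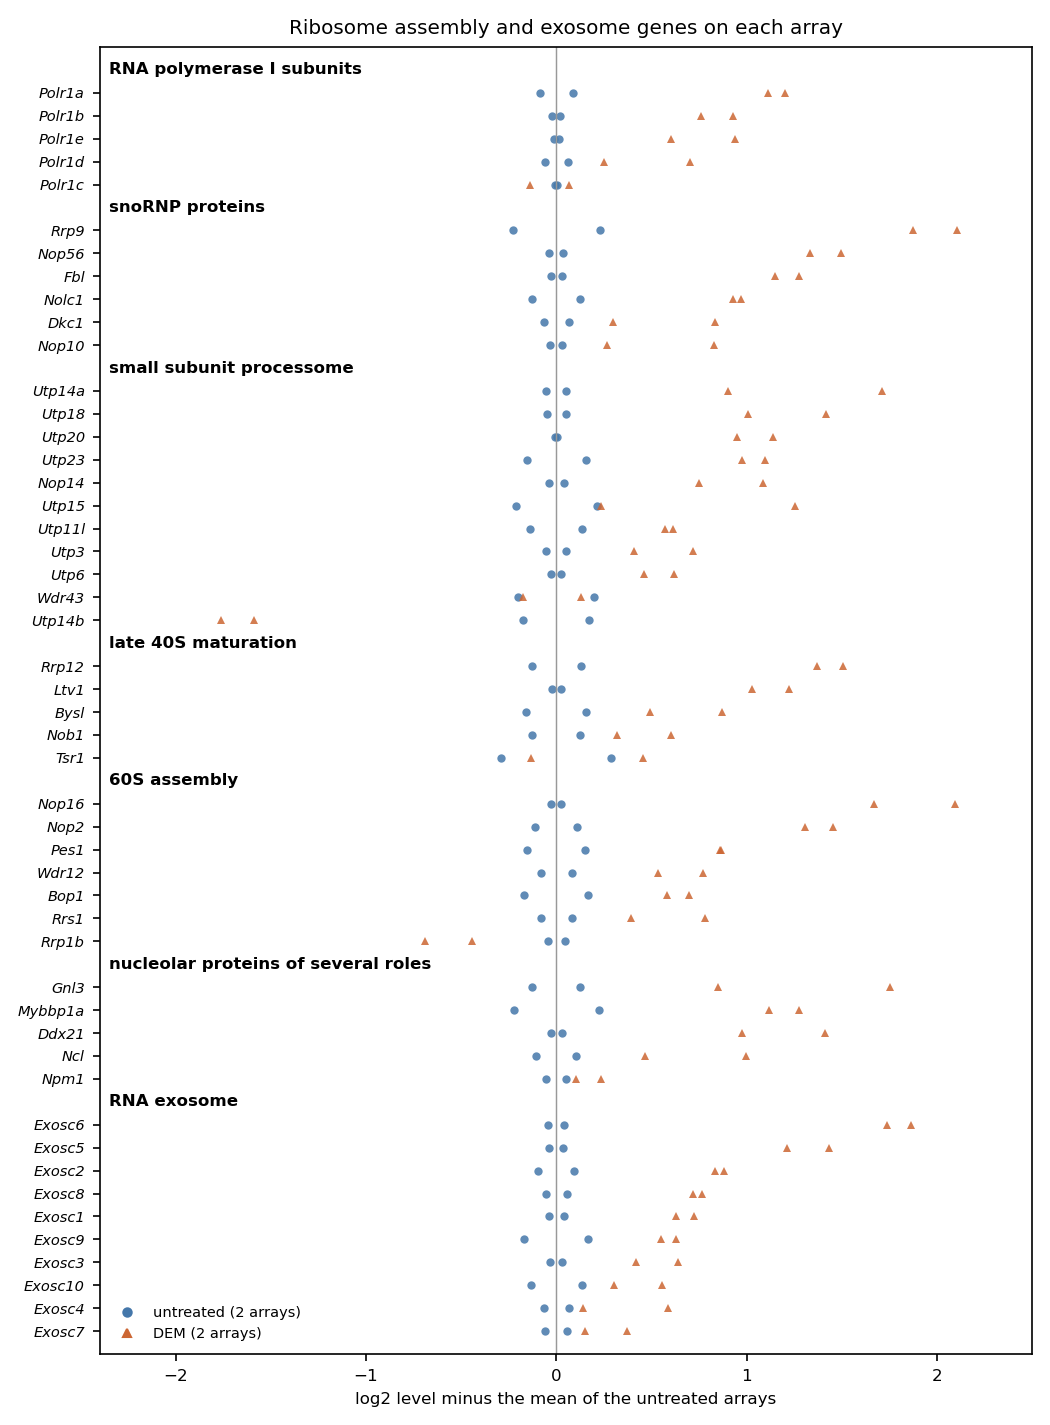
Log2 level of each of the 49 genes on each array minus the mean of the 2 untreated arrays (x axis), with 1 row per gene, grouped by role and ordered by difference. Circles are untreated arrays and triangles DEM arrays; for 44 genes both triangles lie to the right of both circles, and for Utp14b and Rrp1b both lie to the left.

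RNA polymerase I subunits came first in the pathway, and 4 of the 5 were higher on both DEM arrays. Polr1a, the largest subunit, which forms part of the active site, was at 2.86 and 2.69 on the untreated arrays and at 3.88 and 3.98 on the DEM arrays. That is a difference of 1.16 ± 0.17 (SE, n = 2 per group), or 2.23-fold, and it was the only one of the 5 to reach 2-fold. Polr1b, the second largest subunit, was at -0.52 and -0.56 in untreated cells and at 0.39 and 0.22 with DEM, a difference of 0.84 ± 0.19. Polr1e, a subunit that sits on the periphery of the enzyme and takes part in initiation, was at -0.83 and -0.81 against 0.12 and -0.22, a difference of 0.77 ± 0.21. The subunits that polymerase I shares with polymerase III stood lower in this order. Polr1d differed by 0.48 ± 0.21, with 2.58 and 2.70 in untreated cells and 2.89 and 3.35 with DEM. Polr1c gave 3.69 and 3.68 against 3.55 and 3.76, a difference of -0.03 ± 0.17, and its DEM arrays lay on either side of its untreated arrays. In the fit across all genes 3 of the 5 passed as higher, and the group median was 0.77.

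All 6 snoRNP proteins were higher on both DEM arrays, with a group median of 1.08, and 4 of the 6 passed. The largest difference of the 49 genes was that of Rrp9, the U3-specific protein of the snoRNP that guides the first cuts of the precursor. Rrp9 was at 0.03 and 0.49 on the untreated arrays and at 2.37 and 2.13 on the DEM arrays, a difference of 1.99 ± 0.23, or 3.97-fold. The core proteins of the box C/D particles, which methylate ribosomal RNA, followed. Nop56, a scaffold of these particles, was at 3.82 and 3.90 against 5.36 and 5.19, a difference of 1.41 ± 0.16, or 2.67-fold. Fbl, fibrillarin, the methyltransferase itself, was at 5.17 and 5.23 against 6.48 and 6.35, a difference of 1.21 ± 0.14. In both genes the gap between the groups was many times the gap within either pair. Nolc1, a nucleolar phosphoprotein that associates with snoRNPs, differed by 0.95 ± 0.18 by its brightest probe, with 1.51 and 1.76 against 2.56 and 2.60. The box H/ACA proteins among the 49 genes, Dkc1 and Nop10, had smaller differences and wider DEM pairs. Dkc1, the pseudouridine synthase, was at -2.94 and -2.81 against -2.04 and -2.57, a difference of 0.57 ± 0.29. Nop10, a small partner of it, was at 4.68 and 4.62 against 4.92 and 5.48, a difference of 0.55 ± 0.22. Neither Dkc1 nor Nop10 passed.

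Of the 11 genes of the small subunit processome, 9 were higher on both DEM arrays, 1 was lower on both and 1 overlapped. The group median was 0.75, with 6 called higher and 1 lower. Utp14a, which binds the helicase that frees U3 from the precursor in yeast, was at -2.10 and -2.00 in untreated cells and at -1.15 and -0.34 with DEM. Its difference was 1.31 ± 0.31, and its DEM arrays were 0.81 apart, among the wider pairs of the 49 genes. Utp18, a scaffold protein of the processome, was at 0.89 and 0.79 against 2.26 and 1.85, a difference of 1.21 ± 0.21. Utp20, a very large helical repeat protein, had the tightest pair of the 11, with 1.93 and 1.94 in untreated cells, and reached 3.07 and 2.89 with DEM, a difference of 1.04 ± 0.17. Utp23, which in yeast is needed to release the snR30 snoRNA, was at 0.76 and 0.45 against 1.70 and 1.59, a difference of 1.04 ± 0.20. Nop14 differed by 0.92 ± 0.20 and Utp11l, now named Utp11, by 0.59 ± 0.17. All these genes had both DEM arrays above both untreated arrays.

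The remaining processome genes did not pass. Utp15, a protein of the subcomplex that also helps to transcribe the precursor, had the widest DEM pair of all 49 genes, 1.02 apart, with -1.04 and -1.47 in untreated cells and 0.003 and -1.02 with DEM. Its difference of 0.75 ± 0.38 thus rested mainly on DEM replicate 1, since DEM replicate 2 lay just above the untreated pair. Utp3 and Utp6 differed by 0.56 ± 0.17 and 0.54 ± 0.18. Wdr43, a partner of Utp15 in that subcomplex, was at 1.13 and 1.53 against 1.46 and 1.16 by its brightest probe, a difference of -0.02 ± 0.23 with overlapping groups.

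Utp14b went the other way. In mice Utp14b is an intronless copy of Utp14a that lies within the Acsl3 gene and is needed for sperm formation. Its brightest probe was at -0.94 and -1.29 on the untreated arrays and at -2.70 and -2.87 on the DEM arrays, a difference of -1.67 ± 0.25, and it was the only one of the 49 to pass as lower. The accession printed for that probe is now assigned to Acsl3, a fatty acid CoA ligase, in the RefSeq gene table. A second Utp14b probe, whose accession RefSeq assigns to Utp14b, was at -4.21 and -3.46 in untreated cells and not well above background on either DEM array, which makes it at least 1.31-fold lower. Acsl3's own probe was at 1.55 and 1.65 against 1.02 and 0.52 and fell by 0.83 ± 0.23 (limma adjusted p = 0.0425). RNA of Utp14b and RNA of Acsl3 cannot be told apart by the brighter Utp14b probe.

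The late 40S factors divided in the same way into large and small differences, with a group median of 0.68 and 2 of 5 called higher. Rrp12, which in yeast helps to export both subunits, was at -2.33 and -2.07 against -0.69 and -0.83, a difference of 1.44 ± 0.23, or 2.71-fold. Ltv1, an assembly factor that leaves the 40S particle late, was at 2.26 and 2.21 against 3.46 and 3.26, a difference of 1.13 ± 0.17. In both genes the lowest DEM array stood well above the highest untreated array. Bysl, the mammalian relative of the yeast export factor Enp1, differed by 0.68 ± 0.21 and Nob1, the nuclease that makes the mature end of 18S ribosomal RNA, by 0.46 ± 0.21. Tsr1, a GTPase-like factor of the cytoplasmic 40S particle, had the widest untreated pair of the 49 genes. Its levels were 0.75 and 1.33 in untreated cells and 1.50 and 0.91 with DEM, so its groups overlapped around a difference of 0.16 ± 0.30.

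Among the 7 genes of 60S assembly, 6 were higher on both DEM arrays and 1 was lower on both. The group median was 0.65 and 3 passed as higher. Nop16, a nucleolar protein of the early 60S particle and a known MYC target, was at 1.81 and 1.86 in untreated cells and at 3.93 and 3.50 with DEM. The difference of 1.88 ± 0.20, or 3.69-fold, was the second largest of the 49. Nop2, a methyltransferase that modifies cytosine in 28S ribosomal RNA, was at 3.06 and 3.28 against 4.48 and 4.62, a difference of 1.38 ± 0.17. Pes1, Bop1 and Wdr12 form 1 complex, PeBoW, that acts on the 60S precursor, and their brightest probes differed by 0.86 ± 0.18, 0.64 ± 0.19 and 0.65 ± 0.19. Of these, Pes1 passed, with 3.29 and 3.59 against 4.30 and 4.30. Rrs1, which helps to place the 5S particle in yeast, differed by 0.59 ± 0.21 and did not pass.

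Rrp1b was the other gene below its untreated level on both DEM arrays. It encodes a nucleolar protein related to yeast Rrp1 that also binds chromatin. Its levels were -0.66 and -0.56 in untreated cells and -1.30 and -1.05 with DEM, a difference of -0.57 ± 0.21 that did not pass. All 3 Rrp1b probes gave the same direction, with differences from -0.57 to -0.43.

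The nucleolar proteins with several roles had the highest group median, 1.20, and all 5 were higher on both DEM arrays. Mybbp1a, which interacts with polymerase I and with transcription factors, was at 0.99 and 1.44 against 2.49 and 2.34, a difference of 1.20 ± 0.22. Ddx21, an RNA helicase that binds ribosomal RNA and snoRNAs, was at 0.76 and 0.82 against 2.20 and 1.77, a difference of 1.20 ± 0.21. Gnl3, nucleostemin, a GTP-binding protein of stem and tumour cells, was at 0.11 and 0.36 against 1.99 and 1.08, a difference of 1.30 ± 0.32. These 3 passed, although the DEM arrays of Gnl3 were 0.90 apart. The 2 most familiar nucleolar proteins did not pass. Ncl, nucleolin, was at 5.84 and 6.06 against 6.95 and 6.41, a difference of 0.73 ± 0.21. Npm1, nucleophosmin, was at 6.46 and 6.36 against 6.65 and 6.51, and its difference of 0.17 ± 0.14 was close to the median of all genes.

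All 10 exosome genes were higher on both DEM arrays, with a group median of 0.63 and 5 called higher. The ring subunits differed most among themselves. Exosc6 was at 2.99 and 2.91 in untreated cells and at 4.69 and 4.81 with DEM, a difference of 1.80 ± 0.16, or 3.48-fold, and the third largest of the 49. Exosc5 was at 3.00 and 3.08 against 4.25 and 4.47, a difference of 1.32 ± 0.17, or 2.50-fold. Exosc8 and Exosc9, also of the ring, differed by 0.74 ± 0.17 and 0.59 ± 0.20. The other two ring subunits had the smallest differences of the 10. Exosc4 was at 2.86 and 2.99 against 3.07 and 3.51, a difference of 0.36 ± 0.21, and Exosc7 was at 0.80 and 0.68 against 1.11 and 0.89, a difference of 0.26 ± 0.19. The cap subunits, which bind RNA at the entry of the channel, lay between these. Exosc2 differed by 0.86 ± 0.17, Exosc1 by 0.68 ± 0.17 and Exosc3 by 0.53 ± 0.18, the last of which did not pass. Exosc10, the nuclease that trims ribosomal RNA ends in the nucleolus, was at 1.11 and 1.38 against 1.55 and 1.80, a difference of 0.43 ± 0.20. Subunits that occur once in each complex thus had differences from 0.26 to 1.80 on the log2 scale.

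**Figure D2:**
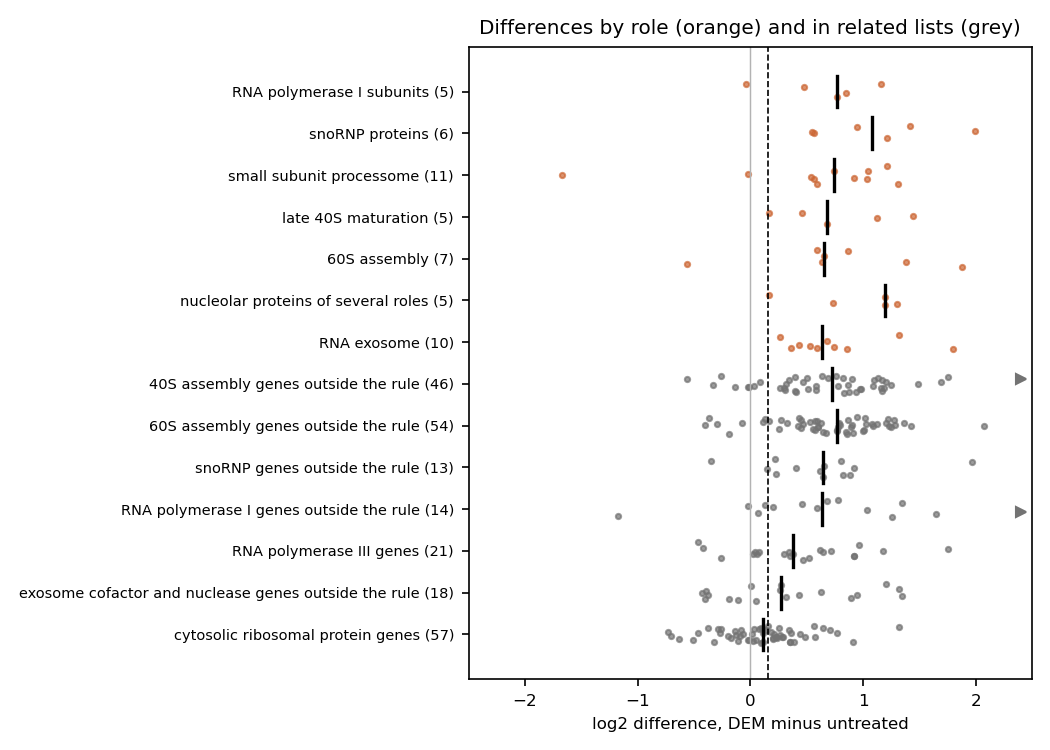
Log2 difference, DEM minus untreated (x axis), of the 49 genes by role (orange) and of genes in related lists (grey), with the number of genes in brackets. Black bars are medians and the dashed line is the median of all genes tested, 0.16; Rbm19 and Twistnb, each not well above background on 1 untreated array, have no measured size and are drawn as arrowheads at the right edge. The medians of the 7 roles lie between 0.63 and 1.20, and that of ribosomal protein genes at 0.11.

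Several probes allowed a second reading of 24 of the 49 genes. In 19 of them all kept probes gave the same direction, and in 5 they did not. The median range between probes of a gene was 0.28 and the largest was 1.63, for Pes1. Its brighter probe differed by 0.86 and its dimmer probe by -0.77, the latter with 2.13 and 2.01 in untreated cells and 1.59 and 1.01 with DEM. The Nolc1 probes differed by 0.95 and -0.38, and the dimmer one was at -2.16 and -1.72 against -2.19 and -2.45. Utp18 had a second probe at -0.25 that was well above background on 3 arrays only, and Exosc4 had probes at 0.36 and -0.08. Wdr43 was the opposite case, since its brighter probe differed by -0.02 and its other probe by 0.94, with 0.42 and 0.53 against 1.58 and 1.24. RefSeq assigns the accession of that other probe to Wdr43, while the accessions of the brightest Wdr43, Gnl3 and Utp20 probes were not found in the table. Size also varied where the direction was shared, and Nop16, at 1.88 by its brightest probe, differed by 0.30 by the other. The 4 Ncl probes all gave a positive difference, from 0.58 to 1.37. With the mean of all kept probes per gene in place of the brightest, the median of the 49 genes was 0.60.

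**Figure D3:**
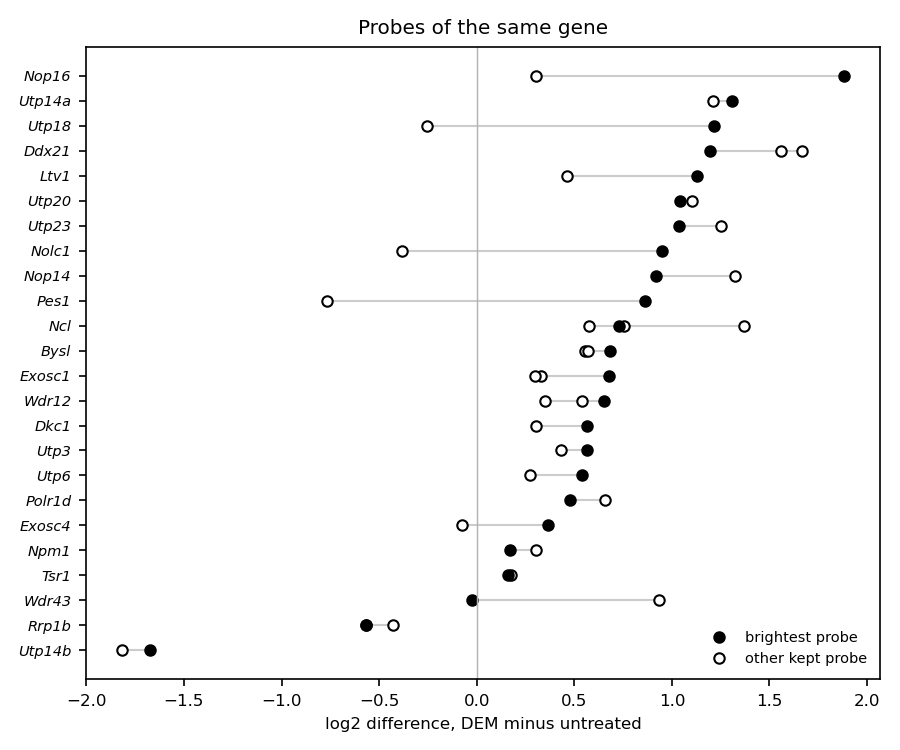
Log2 difference, DEM minus untreated (x axis), by each kept probe of the 24 genes with more than 1. Filled circles are the brightest probe and open circles the others, joined by a grey line; the line crosses 0 for Utp18, Nolc1, Pes1, Exosc4 and Wdr43.

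The promoters were compared for the E-box CACGTG, a palindrome that reads the same on both strands, and for TGACNNNGC, the core of the antioxidant response element through which NRF2 acts, searched on both strands. RefSeq promoter windows of the GRCm38.p6 build, 250 bases before to 50 bases after the start of a gene, were found for 39 of the 49. Some genes have several windows, and a gene was counted when any of its windows held the motif. The E-box was present for 10 of these 39 genes, or 25.6% (exact 95% interval 13.0% to 42.1%). The shares were 11.3% of protein-coding genes tested and 8.09% of all genes in the table. The response element core was present in 3 of 39, or 7.69% (1.62% to 20.9%), those of Exosc10, Bysl and Utp18, against 16.8% and 13.99%. The E-box share stood apart from that of protein-coding genes when the bases after the start were included. In the 250 bases before the start, 4 of 39 genes held an E-box (10.3%), close to 9.63% for protein-coding genes. An E-box that lies or reaches past the start, with none wholly before it, was found in 6 of 39 (15.4%, interval 5.86% to 30.5%). That share was 1.70% of protein-coding genes and 1.23% of the table. This class was not part of the planned comparison, and nothing is read from it. For the 123 genes with a window in the 5 related lists described below, the shares were 17.1% in the whole window and 8.94% before the start. The share only reaching past the start was 8.13%. The intervals cover counting error only, and a match is a string of letters, not evidence of binding.

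The 10 E-boxes are shown with up to 10 bases on each side, on the strand of the gene, because they show where the motif sits and how its flanks differ between genes. Capitals mark the motif, and the sequences are from RefSeq (GRCm38.p6).
Utp14b: cgggcgcgggCACGTGggtggggtcg
Nop2: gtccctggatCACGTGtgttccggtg
Exosc5: aacgctgagcCACGTGctagggccaa
Utp18: gagcgccggtCACGTGgcttgcggcg
Pes1: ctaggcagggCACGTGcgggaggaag
Wdr43: cccgggcgaaCACGTGgctgccgcgg
Tsr1: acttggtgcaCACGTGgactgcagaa
Ltv1: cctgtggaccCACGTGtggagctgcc
Utp20: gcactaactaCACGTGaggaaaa
Mybbp1a: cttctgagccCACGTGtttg
The first 4 lie before the start, with their first base at position -63 for Utp14b, -60 for Nop2, -44 for Exosc5 and -20 for Utp18. The other 6 begin at position 2 for Pes1, 17 for Wdr43, 24 for Tsr1, 28 for Ltv1, 37 for Utp20 and 40 for Mybbp1a. By the brightest probes, log2 differences run from -1.67 for Utp14b through -0.02 for Wdr43 and 0.16 for Tsr1 to 1.38 for Nop2. The brighter Utp14b probe cannot tell Utp14b RNA from Acsl3 RNA. The other Wdr43 probe, the one RefSeq assigns to Wdr43, differed by 0.94. Second probes of Pes1 and Utp18 went the other way, at -0.77 and -0.25. Tsr1, at 0.18 by its other probe, had no clear difference by either.

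**Figure D4:**
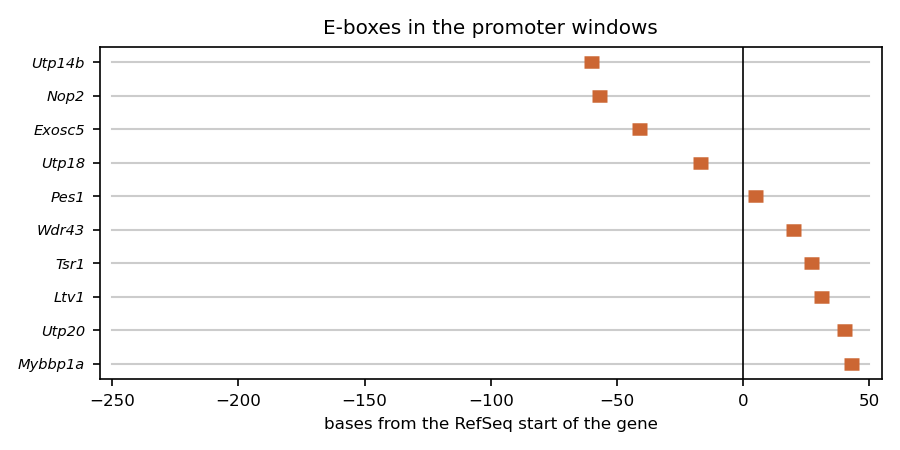
Position of the E-box (orange) in the promoter windows of the 10 genes that hold one, in bases from the RefSeq start of the gene (x axis). Grey lines are the windows, from 250 bases before to 50 after the start; 4 motifs lie before the start and 6 after it.

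The 250 bases before the start are given for 3 of these genes, each the one with the largest difference among those of its role that hold an E-box before the start. They are Nop2 on the plus strand at chr6:125131633-125131882, Exosc5 on the plus strand at chr7:25658903-25659152 and Utp14b on the plus strand at chr1:78658190-78658439 (GRCm38.p6), with the motif in capitals.
Nop2: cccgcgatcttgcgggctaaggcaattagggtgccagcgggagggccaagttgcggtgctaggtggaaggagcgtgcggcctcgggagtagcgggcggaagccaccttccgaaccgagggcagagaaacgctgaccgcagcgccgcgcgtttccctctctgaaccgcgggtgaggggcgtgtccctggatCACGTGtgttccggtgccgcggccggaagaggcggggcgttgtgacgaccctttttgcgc
Exosc5: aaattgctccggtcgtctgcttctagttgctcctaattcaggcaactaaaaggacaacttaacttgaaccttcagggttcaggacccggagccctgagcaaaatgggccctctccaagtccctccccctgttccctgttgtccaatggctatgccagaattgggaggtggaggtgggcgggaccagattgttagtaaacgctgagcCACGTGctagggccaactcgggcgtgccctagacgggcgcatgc
Utp14b: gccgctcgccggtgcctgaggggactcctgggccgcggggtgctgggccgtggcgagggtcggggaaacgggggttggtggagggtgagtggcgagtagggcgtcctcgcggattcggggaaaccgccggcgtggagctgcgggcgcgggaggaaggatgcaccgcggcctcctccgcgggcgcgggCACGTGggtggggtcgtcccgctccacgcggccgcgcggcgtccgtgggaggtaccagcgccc
Nop2 and Exosc5 were 1.38 and 1.32 higher with DEM, and Utp14b was 1.67 lower by its brighter probe. RNA of Utp14b and RNA of Acsl3 cannot be told apart by that probe. All of these genes carry the same motif between 44 and 63 bases before their starts.

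Genes of the same pathway whose names the rule does not take were examined in 5 lists. The lists were drawn up with earlier results of these arrays known. Of 46 genes for 40S assembly, 21 rose and 0 fell in the fit across all genes, with a median difference of 0.72. Of 54 genes for 60S assembly, 29 rose and 0 fell, with a median of 0.77. The snoRNP list had 5 of 13 higher and 0 lower, the RNA polymerase I list 6 of 14 higher and 0 lower, both with a median of 0.64. Exosome cofactors and nucleases had 6 of 18 higher and 0 lower, with a median of 0.27. In that list both DEM arrays lay above both untreated arrays for 10 genes and below for 5. Over all genes tested these shares were 42.4% and 26%. In all, 67 of 145 genes rose and 0 fell, beside 15.5% and 11.8% of all genes tested, and the median of the 145 was 0.64.

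Among the 40S factors, Pwp2, a scaffold of the processome, rose 3.23-fold (log2 1.69 ± 0.19, limma adjusted p = 0.00319), from 1.63 and 1.84 to 3.54 and 3.31. Mphosph10, a U3-associated protein, rose by 1.49 ± 0.18, the late-acting kinase Riok2 by 1.75 ± 0.24 and Wdr46 by 1.16 ± 0.16. Heatr1, the mammalian Utp10 and a partner of Utp15, rose by 1.25 ± 0.21 (limma adjusted p = 0.00986). Among the 60S factors, Noc3l rose by 2.07 ± 0.22, or 4.20-fold, from -1.04 and -0.98 to 1.27 and 0.85. Noc2l, Ebna1bp2 and the helicase Ddx31 rose by 1.27 ± 0.16, 1.25 ± 0.15 and 1.42 ± 0.19. One 40S gene, Rbm19, which was named after its values were seen, was at 1.89 on 1 untreated array and not well above background on the other, so no size of difference is given for it, and it did not pass.

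The snoRNP protein Nhp2, a partner of Dkc1 and Nop10, rose 3.91-fold (log2 1.97 ± 0.21, limma adjusted p = 0.00299), from 2.19 and 2.68 to 4.41 and 4.39. Gar1, the last core protein of that particle, differed by 0.82 ± 0.26 and did not pass (limma adjusted p = 0.0653). The 4 core proteins of the H/ACA particle, Dkc1, Nop10, Nhp2 and Gar1, thus had log2 differences of 0.57, 0.55, 1.97 and 0.82. Tcof1, treacle, which links polymerase I to early processing, rose by 0.89 ± 0.19. Nufip1 and Ruvbl1, which help to assemble snoRNPs, rose by 0.92 ± 0.17 and 0.80 ± 0.18.

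Around RNA polymerase I, Ubtf, the factor that binds ribosomal DNA along its length, rose 2.54-fold (log2 1.34 ± 0.16, limma adjusted p = 0.00384), from 3.32 and 3.18 to 4.64 and 4.56. Taf1a and Taf1c, subunits of the promoter selectivity factor, rose by 1.65 ± 0.22 and 1.04 ± 0.19. Taf1b and Taf1d, also of that factor and named after their values were seen, did not pass. Taf1b was at -1.78 and -2.49 in untreated cells and at -2.69 and -3.93 with DEM, a difference of -1.17 ± 0.48. Taf1d differed by 0.13 ± 0.19 with overlapping groups. Cd3eap, the partner of Polr1e in the enzyme, rose by 1.26 ± 0.17. Rrn3, the initiation factor that recruits the polymerase, rose by 0.68 ± 0.19 (limma adjusted p = 0.0458), a call that was lost after quantile and cyclic loess normalization and without the variance trend. Twistnb, also named after its values were seen, was at 1.64 on 1 untreated array and not well above background on the other, and it did not pass. RNA polymerase III, which makes 5S ribosomal RNA and transfer RNA and shares Polr1c and Polr1d, had 5 of 21 genes higher and 0 lower. Over all genes these shares were 15.5% and 11.8%. The median of the 21 was 0.38. Both DEM arrays lay above both untreated arrays for 14 of them and below for 3, beside 42.4% and 26% of all genes. The polymerase III subunits Polr3g and Polr3c rose by 1.76 ± 0.23 and 0.92 ± 0.16. The initiation factor subunits Gtf3c4 and Gtf3c6 rose by 1.17 ± 0.21 and 0.92 ± 0.20.

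Among the partners of the exosome, Dis3, its nuclear catalytic subunit, rose by 0.95 ± 0.18 (limma adjusted p = 0.0142), from 0.81 and 0.69 to 1.68 and 1.72, and Dis3l, the cytoplasmic counterpart, by 0.89 ± 0.17. Zfc3h1, which brings polyadenylated nuclear RNA to the exosome, rose by 1.32 ± 0.17. Tent4b, a poly(A) polymerase that tags RNA for it, rose by 1.35 ± 0.21. Mtrex, the helicase common to the nuclear cofactor complexes, differed by 0.27 ± 0.16 and did not pass (limma adjusted p = 0.270).

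Ribosomal protein genes, whose products these factors assemble, are given for comparison. Of 57 measured, 8 rose and 2 fell, beside 15.5% and 11.8% of all genes, and their median difference of 0.11 lay near that of all genes. The stalk proteins Rplp0, Rplp1 and Rplp2 rose by 0.91 ± 0.13, 0.71 ± 0.14 and 0.77 ± 0.14, and Rpl3 and Rpl4 fell by 0.73 and 0.63. Rps19bp1, at 1.32 ± 0.16, was taken into this list by its name and is a binding partner of a ribosomal protein, not 1 of them. The median of the list turned below 0 after quantile normalization, cyclic loess and spike-in scaling (-0.22, -0.21 and -0.0473).

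The counts in these lists also depended on which untreated array was present. Without untreated replicate 1 the numbers higher were 4 for 40S, 7 for 60S, 1 for snoRNP, 3 for polymerase I, 1 for polymerase III and 1 for exosome partner genes. Without untreated replicate 2 they were 6, 5, 1, 1, 0 and 0. Scaling to spike-in RNA left 1 gene higher in the 40S list and 1 in the polymerase I list and 0 in the other four, and none of the 32 calls named above from the lists and the ribosomal protein genes passed under it. Of those 32 calls, 19 were lost without untreated replicate 1 and 22 without untreated replicate 2. With the mean of all kept probes, Ebna1bp2, Heatr1, Polr3c, Ruvbl1 and Rpl4 did not pass, and without the variance trend Ruvbl1, Rrn3, Rpl3, Rpl4, Rplp1 and Rplp2 did not. Rplp1 also did not pass after quantile normalization, cyclic loess or with no filter on dim probes, nor Rplp2 after quantile normalization or with no filter. Rrn3 did not pass without DEM replicate 1, nor Rpl4 without DEM replicate 2. Gar1 passed with normexp, with the replicate block and without DEM replicate 2.

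The distance between the 49 genes and all genes was also read under each setting. The 49 were chosen by this same difference, so nothing is read from the distance being above 0. A constant per array, as in spike-in scaling and nearly all of the authors' values, cancels in this distance. The variance trend and the replicate block do not alter it either. The median of the 49 stood 0.58 above the median of all genes as reported, 0.56 after quantile normalization, 0.56 after cyclic loess, 0.43 after normexp background correction and 0.58 with spike-in scaling. It stood 0.27 above with no filter on dim probes, where the median of all genes was 0.47 and that of the 49 was the same 0.74. Under these settings 44 or 45 of the 49 genes had a positive difference. Over all 24658 genes tested, 14662 had a positive difference as reported, and that share was not counted under the other settings.

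**Figure D5:**
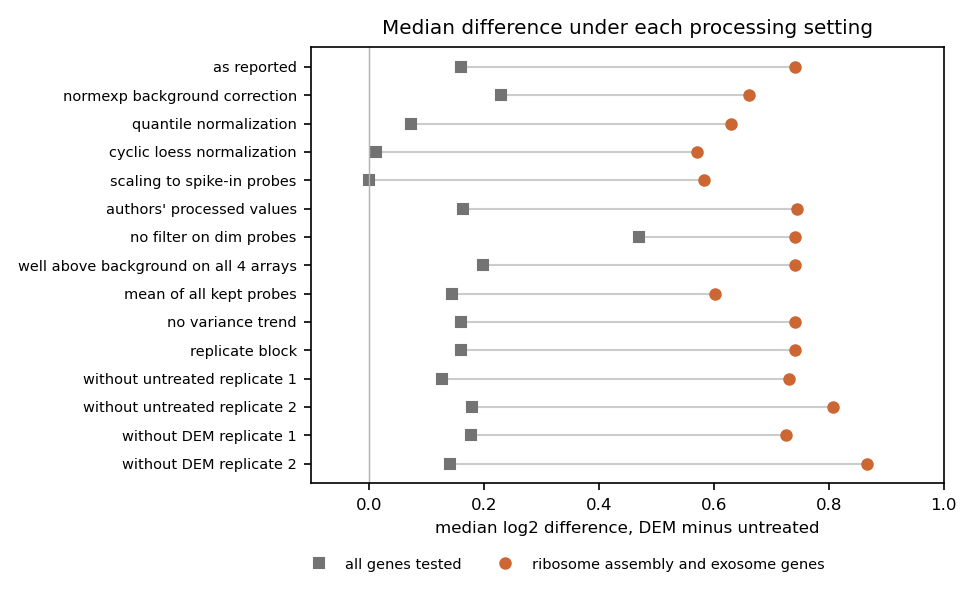
Median log2 difference, DEM minus untreated (x axis), of the 49 genes (orange circles) and of all genes tested (grey squares) under each processing setting (rows). The medians of the 49 lie between 0.57 and 0.87, to the right of the median of all genes in every row. The 49 were chosen by this difference. Rows that differ only by a constant per array, the variance trend or the replicate block share 1 distance by construction.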

How the data were processed

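Each of the 4 Cy3-labelled RNA samples was run on its own one-colour Agilent array of custom mouse design, per the labels. Spot intensity values (processed signal) were made by Agilent Feature Extraction 10.7.3.1, per the file headers, with spatially detrended background subtraction and surrogates in place of the lowest signals. The deposited series table holds log2 values made by the authors, which equal log2 processed signal minus a constant per array for at least 99.97% of probes (within 0.01), and it was used as an alternative. Control spots (1319) were left out, as were 130 probes with an outlier mark. From the log2 processed signal of each array its 75th percentile was subtracted. A probe was kept (31771 of 61307) when 2 or more of the 4 arrays had it well above background. The brightest probe stood for each gene. Names were matched to RefSeq by accession, then symbol, then synonym, except that the 49 genes were taken by the name in the files. All 4 arrays were on 1 slide with 1 scan date. A second Utp14b probe that was dim on both DEM arrays has only a bound, set by the lowest level well above background on each array.

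Groups came from the treatment label. limma 3.58.1 (R 4.3.3) was fitted to all genes (lmFit, then eBayes with the trend option), two-sided, with 2 residual and 4.03 prior degrees of freedom, Benjamini-Hochberg adjustment over all genes and a threshold of 0.05. The number of arrays limits the precision. The genes and the lists were chosen with earlier results of these data known. From each related list the 4 genes with the smallest p, those that passed against the direction of their list, and Rrn3, Ubtf, Heatr1, Nhp2, Gar1, Mtrex and Dis3 were named, and any other is marked. Upstream sequences were shown for 3 of the 5 genes with an E-box and the largest difference in their role. In the other two, Ltv1 and Mybbp1a, the motif lies after the start, and it is shown with its flanks only. Other settings tried were quantile and cyclic loess normalization, normexp (offset 50), scaling to 7 spike-in probes, the authors' values, other filters, the mean of probes, no variance trend, a replicate block, and fits that each leave out 1 array.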

Additional observations from a re-analysis of the deposited data

How the results depend on the processing

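Medians of the 49 genes moved to 0.63 (quantile), 0.57 (cyclic loess), 0.58 (spike-in scaling) and 0.60 (mean of probes). In the order 60S, polymerase I, polymerase III and exosome partner lists, medians were 0.60, 0.44, 0.24 and 0.11 with cyclic loess and 0.61, 0.48, 0.22 and 0.11 with spike-in scaling. For 60S, polymerase I and polymerase III they were 0.62, 0.47 and 0.30 with quantile normalization and 0.67, 0.58 and 0.31 with normexp. The snoRNP median was 0.49 with cyclic loess and 0.48 with spike-in scaling, the mean of probes gave 0.67 for 60S and 0.13 for exosome partners, and the filter for all 4 arrays gave 0.53 for polymerase I. Ribosomal protein medians reversed to -0.22 (quantile, 2 higher and 10 lower), -0.21 (cyclic loess, 3 and 10) and -0.0473 (spike-in, 0 and 0). The cause was not tested.

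Genes higher over the whole array numbered 6470 with normexp, 2529 with cyclic loess, 17297 with no filter, and 363 (889 lower) with spike-in scaling. With spike-in scaling 0 of the 49 were higher and 0 lower, and 1 gene was higher in the 40S and polymerase I lists and 0 in the 60S, snoRNP, polymerase III and exosome partner lists. No filter gave 8 polymerase III and 2 ribosomal protein genes higher and 1 exosome partner lower, normexp 1 exosome partner lower and cyclic loess 2. Without the variance trend 3 snoRNP and 2 ribosomal protein genes were higher and 0 of the latter lower, and the mean of probes left 1 ribosomal protein gene lower. Restricting the promoter to the 250 bases before the start moved the E-box share of the 49 genes from 25.6% to 10.3%.

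Leaving out each array in turn gave the 49 genes a median of 0.73 to 0.87 with 8 to 32 higher and 0 to 2 lower, and all genes 644 to 4489 higher and 802 to 3816 lower. Ranges of the median, the number higher and the number lower were 0.57 to 0.84, 4 to 24 and 0 to 1 for 40S, 0.68 to 0.79, 5 to 36 and 0 to 1 for 60S, and 0.48 to 0.70, 1 to 6 and 0 to 0 for snoRNP genes. They were 0.52 to 0.65, 1 to 6 and 0 to 1 for polymerase I, 0.42 to 0.49, 0 to 6 and 0 to 1 for polymerase III, 0.22 to 0.36, 0 to 6 and 0 to 0 for exosome partners, and 0.04 to 0.19, 1 to 12 and 0 to 4 for ribosomal protein genes. A group left with 1 array was assumed to vary like the other group. With the replicate block, 30 of the 49 genes were higher and 1 lower, all genes gave 4473 higher and 3378 lower, and 1 polymerase I gene was lower. Same-numbered arrays share only a number, and the correlation of their deviations from the group means was 0.08.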

Other observations

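Genes that carry a Nop or Utp symbol today but another name on the array were looked up after the results above were known, and were not among the 49. Nop58, listed as Nol5, is the second scaffold of the box C/D particle beside Nop56 and rose by 0.64 ± 0.17 (limma adjusted p = 0.0377), from 3.62 and 3.63 to 4.38 and 4.14. Nop9 rose by 0.72 ± 0.18 (limma adjusted p = 0.0333), and Utp4, listed as Cirh1a and also counted in the 40S list, by 0.90 ± 0.23. Utp25 differed by 0.62 ± 0.32 with overlapping groups and did not pass (limma adjusted p = 0.204). Nop53, listed as Gltscr2, which brings the exosome to the 60S precursor in yeast, was the exception. It was at 1.66 and 2.15 on the untreated arrays and at 0.34 and 0.73 on the DEM arrays, and fell by 1.37 ± 0.25 (limma adjusted p = 0.0130).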
